A study of Mus musculus with 5 samples.

Results

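The genes described here encode 8 proteins with which keratinocytes and visiting leukocytes act against microbes: Lcn2, Slpi, Defb1, Defb3, Defb14, Camp, Lyz2 and Pglyrp1. They were chosen as a set of known defence genes, by symbol and with earlier results of these data known, and the 8 were found among the 17657 protein-coding genes of the deposited table. RNA-seq libraries were compared between cultured epidermal stem cells of Angptl4 knockout mice (KO, libraries KO1 and KO2) and of wild-type mice (WT, libraries WT1, WT2 and WT3), where epidermal stem cells are the progenitors that renew the outer skin layer. Both groups were male C57BL/6 mice with a labelled time of 8 weeks, and both were grown in KGM2, a keratinocyte growth medium, so the cells were measured in culture and not in skin. Angptl4 encodes a secreted inhibitor of lipoprotein lipase, and the sources used here give neither the design of the KO allele nor the number of animals behind a library. Replicates may therefore be technical, and p-values measure the spread between these libraries.

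Antimicrobial proteins kill or starve microbes on the skin surface, and keratinocytes make them in a basal amount and in larger amounts after injury or contact with microbes. Induction runs through pattern-recognition receptors and the receptors of interleukin-1 and interleukin-17, which act through NF-kappaB, its cofactor I-kappaB-zeta and C/EBP factors. Beta-defensins are small cationic peptides that disrupt microbial membranes, lipocalin-2 binds the iron carriers of bacteria, and Slpi blocks serine proteases of leukocytes and is itself antibacterial. Cathelicidin, lysozyme and the peptidoglycan recognition protein Pglyrp1 are best known from leukocyte granules.

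The start regions of the members are shown first, because they are where NF-kappaB and C/EBP factors could act and because Lcn2, Slpi and Defb3 moved in different directions. RefSeq's promoter table (build GRCm38.p6) held 6 of the 8 members, and the 250 bases before the start of 3 that changed are printed 5′ to 3′ on the gene's strand, in lower case with motif matches in capitals. The windows lie at chr2:32387740-32387989 on the minus strand for Lcn2, chr2:164356508-164356757 on the minus strand for Slpi and chr8:19293111-19293360 on the plus strand for Defb3.
Lcn2: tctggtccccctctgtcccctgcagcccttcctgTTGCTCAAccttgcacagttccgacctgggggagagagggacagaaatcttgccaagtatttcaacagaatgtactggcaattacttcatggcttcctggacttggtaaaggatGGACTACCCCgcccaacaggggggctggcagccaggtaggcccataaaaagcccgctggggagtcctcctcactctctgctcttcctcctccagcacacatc
Slpi: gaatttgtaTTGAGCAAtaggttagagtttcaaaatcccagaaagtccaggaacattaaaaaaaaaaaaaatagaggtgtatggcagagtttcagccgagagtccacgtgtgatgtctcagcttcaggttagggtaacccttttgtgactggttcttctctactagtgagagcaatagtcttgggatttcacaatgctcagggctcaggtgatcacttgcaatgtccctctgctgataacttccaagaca
Defb3: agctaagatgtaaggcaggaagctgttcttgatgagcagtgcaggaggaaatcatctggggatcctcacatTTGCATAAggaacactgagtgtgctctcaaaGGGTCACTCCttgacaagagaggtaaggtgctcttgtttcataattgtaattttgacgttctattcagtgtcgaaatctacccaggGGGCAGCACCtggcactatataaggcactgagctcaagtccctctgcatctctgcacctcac

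The motifs searched, on both strands and with no overlap between their matches here, were GGGNNNNNCC for NF-kappaB and TTGCNNAA for C/EBP. The Lcn2 window held 1 match to each, TTGCTCAA for C/EBP and GGACTACCCC, which reads as the NF-kappaB motif on the opposite strand. The Slpi window held 1 C/EBP match (TTGAGCAA, opposite strand) and 0 NF-kappaB matches. The Defb3 window held 2 NF-kappaB matches (GGGTCACTCC and GGGCAGCACC) and 1 C/EBP match (TTGCATAA). Of the windows searched but not printed, those of Camp and Lyz2 held 0 matches and that of Pglyrp1 held 1 NF-kappaB match. Defb1, which also changed, and Defb14 had no window to search. Of 32851 promoter windows of the same length in that table, 45.8% held the NF-kappaB motif and 9.56% the C/EBP motif. These matches are descriptions of letters, and binding was not measured.

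The libraries held 20507641 and 20283084 expected counts in KO1 and KO2 and 20686246 to 20773407 in the WT libraries, so 1 CPM (counts scaled to library size) stands for about 21 counts. Angptl4 itself was at 0.832 and 1.06 CPM in KO1 and KO2, against 6.96, 5.76 and 4.12 CPM in WT1, WT2 and WT3. The groups did not overlap, and Angptl4 RNA was low but detected in KO. Scatter between libraries, as the biological coefficient of variation, was 28.9% in KO and 5.22% in WT. Basal keratinocyte markers were abundant in both groups: the 7 genes of that list summed to 38477 to 49196 CPM in KO and 36790 to 37700 CPM in WT, with Krt5 and Krt14 in the lead. Of the 7, Krt15 and Itgb4 rose (log2 fold changes of 3.06 and 0.49), Trp63 and Itga6 fell (-0.73 and -0.91) and 3 did not pass. These calls are 57.1% of the list, against 40.8% of all tested genes, so they are not a result about the list. Krt15, a keratin of hair follicle stem cells, was low in both groups, at 2.67 and 1.44 CPM in KO1 and KO2 and 0.0974 to 0.499 CPM in WT. Its call was lost without WT1 or WT2.

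The antimicrobial genes did not move together. In KO cells Defb1 and Lcn2 rose and Slpi and Defb3 fell, each past an adjusted p of 0.05 (Benjamini-Hochberg) in the quasi-likelihood test of edgeR. Of the 8 genes 6 had enough counts to be tested and 4 passed, 2 higher and 2 lower, while Defb14 and Lyz2 did not pass and Pglyrp1 and Camp had too few counts. The background was high: of 12957 genes tested, 40.8% passed, 20.4% higher and 20.4% lower in KO, so 4 of 6 is not a result about these genes as a group. KO and WT ranges stood apart for 5 of the 6 tested members and for 66.4% of all tested genes, which again is not a result about the group. The edgeR test gave both groups 1 shared estimate of the spread. Leaving out WT1, WT2 or WT3 ended the calls of Defb1 and Lcn2 and kept those of Slpi and Defb3. In those fits the log2 fold changes stayed at 1.37 to 1.49 for Defb1 and 3.11 to 3.35 for Lcn2. Calls over all tested genes fell from 5286 to 1936, 2241 and 2221. With a separate spread per group Slpi, Defb1 and Lcn2 passed (adjusted p = 0.0103, 0.0146 and 0.00636 by limma-voom) and Defb3 did not.

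**Figure D1:**
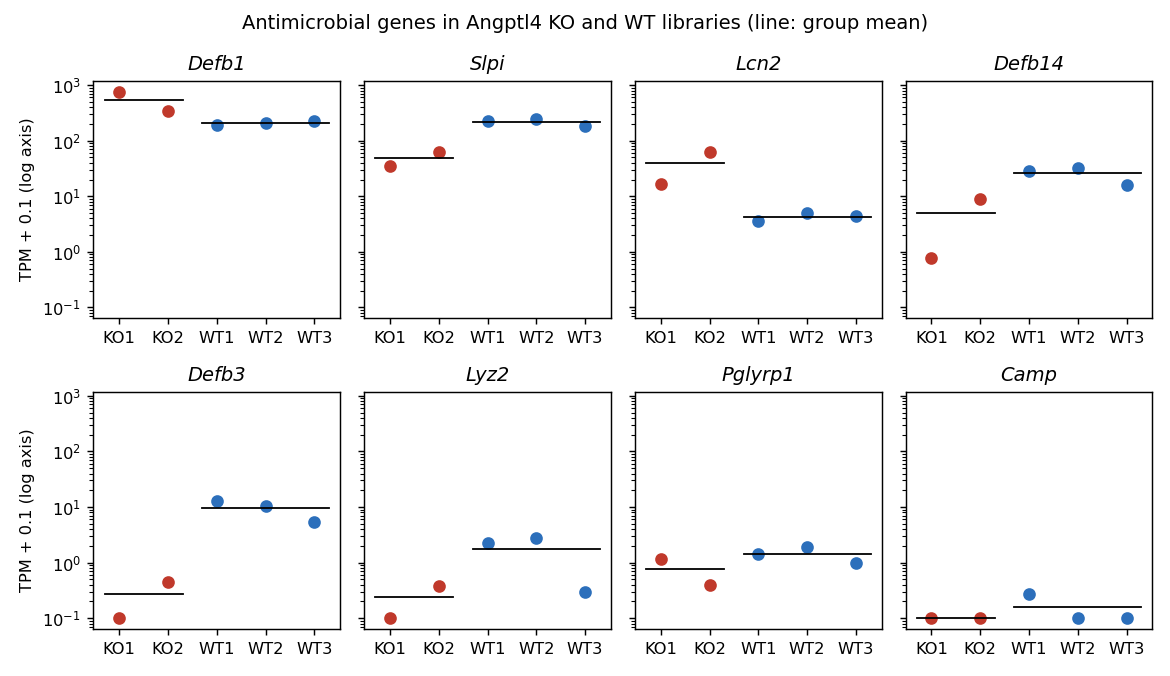
TPM (a level scaled for transcript length and library, plus 0.1, log axis) of each antimicrobial gene in the 2 KO libraries (red, left) and 3 WT libraries (blue, right); points are libraries and lines are group means. KO points lie above every WT point for Defb1 and Lcn2 and below every WT point for Slpi, Defb14 and Defb3, while the groups overlap for Lyz2, Pglyrp1 and Camp.

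Among the beta-defensins, Defb1 (NCBI gene 13214, GRCm38.p6 chromosome 8, 21776555 to 21795185, plus strand) is the member that epithelia make without induction. It was at 758 and 336 TPM in KO1 and KO2, against 189, 207 and 222 TPM in WT1, WT2 and WT3. Both KO libraries were higher than every WT library, and KO1 was 2.27 times as high as KO2 in CPM, while the highest WT library was 1.17 times the lowest. The log2 fold change was 1.43 ± 0.33 (SE), 2.70 times the WT level (adjusted p = 0.0224 by edgeR). These values rest on 10104 counts over the KO and 5645 over the WT libraries. Without KO1 the log2 fold change was 0.72, and without WT1, WT2 or WT3 the call was lost (adjusted p = 0.0776 to 0.0906 in edgeR; range over its alternatives 1.1e-06 to 0.0906).

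Defb3 and Defb14, beta-defensins that keratinocytes induce on injury or infection, lay on the other side. Defb3 (gene 27358, chromosome 8, 19293361 to 19295339, plus strand) had 0 and 1 counts in KO1 and KO2, against 36, 30 and 15 counts in WT1, WT2 and WT3. That is 0 and 0.34 TPM in KO1 and KO2 and 12.5, 10.4 and 5.2 TPM in WT1, WT2 and WT3, so the gene was close to undetected in both KO libraries and low but present in each WT library. With 1 count over the KO and 81 over the WT libraries, the ratio of KO to WT was 0.0186, with a 95% counting interval of 0.000464 to 0.106. The fall passed the test (adjusted p = 0.00854 by edgeR), and it did not pass with a separate spread for each group (adjusted p = 0.128 by limma-voom; range over its alternatives 0.00117 to 0.128).

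Defb14 (gene 244332, chromosome 8, 19160244 to 19195309, plus strand) is 98.1 kb from Defb3. It was at 0.67 and 8.96 TPM in KO1 and KO2, against 28.8, 32.4 and 15.8 TPM in WT1, WT2 and WT3. The groups did not overlap, and the KO libraries differed 6.70-fold from each other in CPM. The log2 fold change was -2.30 ± 0.74 (SE) and just missed the threshold (adjusted p = 0.0546 by edgeR; range over its alternatives 0.0011 to 0.249). The table lists 10 transcripts for Defb14 and 1 for each other member, its count in KO1 was 3.98 and so not whole, and the lincRNA Gm39139 overlaps it on the opposite strand in GENCODE M21. The sources used here do not give the strand setting, so reads of the pair cannot be told apart. Slpi likewise holds the miRNA gene Mir7678 on its own strand.

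WT3 was the lowest WT library for Defb3 and for Defb14, with 15 counts of Defb3 against 30 to 36 in WT1 and WT2 and 47 counts of Defb14 against 86 to 98. Of 11 beta-defensin genes in the table, 8 lay on chromosome 8, 5 had at least 10 counts over the 5 libraries and 3 passed the count filter, these being Defb1, Defb3 and Defb14. Defb2 and Defb6, named after their values were seen, were the other two with at least 10 counts. Defb2, 44.7 kb from Defb1, had 18.55 and 0 counts in KO1 and KO2 and 3 to 10 in the WT libraries. Defb1, which rose, and Defb3, which fell, lie 2481 kb apart on the same chromosome.

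Slpi (gene 20568, chromosome 2, 164354070 to 164356507, minus strand) encodes secretory leukocyte protease inhibitor, which protects tissue from neutrophil elastase. It was at 35.6 and 61.9 TPM in KO1 and KO2, against 228, 248 and 185 TPM in WT1, WT2 and WT3. Each KO library was far below the lowest WT library, and the spread within groups was small beside that gap (1.73-fold in KO and 1.34-fold in WT). In CPM it averaged 20.9 ± 7.92 in KO (SD, n = 2) and 93.2 ± 13.6 in WT (SD, n = 3). The log2 fold change was -2.16 ± 0.27 (SE; adjusted p = 0.00455 by edgeR), 4.45-fold lower in KO. Of the 4 calls among the members, that of Slpi alone passed under each of the 16 alternatives (log2 fold change -2.59 to -1.82).

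Lcn2 (gene 16819, chromosome 2, 32384637 to 32387739, minus strand) encodes lipocalin-2, which binds bacterial siderophores and withholds iron. It was at 16.6 and 61.9 TPM in KO1 and KO2, against 3.43, 4.84 and 4.36 TPM in WT1, WT2 and WT3. Both KO libraries exceeded every WT library, and KO2 was 3.71 times as high as KO1 in CPM, the reverse of the order seen for Defb1. The log2 fold change was 3.24 ± 0.58 (SE; adjusted p = 0.0108 by edgeR), on 676 counts over the KO and 107 over the WT libraries. Without KO2 it was 2.02. Without WT1, WT2 or WT3 the call was lost (adjusted p = 0.0506 to 0.0576 in edgeR; range over its alternatives 2.38e-07 to 0.0576).

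**Figure D2:**
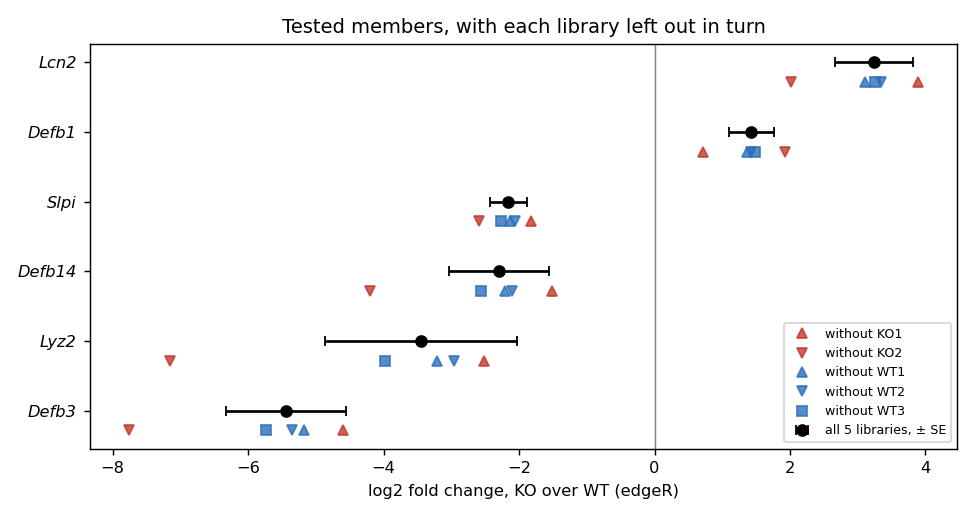
Log2 fold change of KO over WT for the 6 tested antimicrobial genes, with all 5 libraries (black, bars are SE) and with each KO (red) or WT (blue) library left out. Lcn2 and Defb1 stay above 0 and the other genes below 0 in each of these fits, and the values without KO2 stand apart for Lyz2 and Defb3, which have 0 counts in KO1, so that those fitted values depend on the prior count.

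Lyz2 (gene 17105, chromosome 10, 117277541 to 117282272, minus strand) encodes lysozyme, which cleaves the bacterial cell wall and is abundant in macrophages and neutrophils. It had 0 and 3 counts in KO1 and KO2, against 22.69, 28 and 2 counts in WT1, WT2 and WT3. WT3 lay within the KO range, so the groups overlapped. The ratio of KO to WT was 0.0851 on the summed counts (95% counting interval 0.017 to 0.262), and the difference did not pass (log2 fold change -3.45 ± 1.42, SE; adjusted p = 0.106 by edgeR). Lyz1, its near-identical neighbour, was given 2.31 counts in WT1, which with the 22.69 of Lyz2 makes 25, so the 2 genes shared reads there.

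Some leukocyte markers were, like Lyz2, highest in WT1 and WT2, and others were not. The complement gene C1qa, a macrophage product, was at 0 and 0.0483 CPM in KO1 and KO2 and 0.682, 0.822 and 0 CPM in WT1, WT2 and WT3. Laptm5, a lysosomal protein of blood cells, was at 0 and 0.145 CPM in KO1 and KO2 and 0.731, 0.629 and 0.097 CPM in WT1, WT2 and WT3. Csf1r, a growth factor receptor of macrophages, was instead highest in KO1, at 1.17 and 0.386 CPM in KO1 and KO2 and 0.633, 0.532 and 0 CPM in WT1, WT2 and WT3, and Coro1a was as high in KO1 (0.44 CPM) as in WT1 (0.438 CPM). These genes, like C1qb and C1qc, were named after their values were seen, and C1qa, Laptm5 and Csf1r did not pass the test. The 6 pan-leukocyte markers summed to 0.587 and 0.676 CPM in KO1 and KO2 and 1.75, 1.55 and 0.485 CPM in WT1, WT2 and WT3, and the 1 of 6 with enough counts to be tested, Laptm5, did not pass. Tyrobp had 0 counts in both KO libraries and 4, 0 and 1 in WT1, WT2 and WT3. The 9 macrophage markers found in the table summed to 36.3 to 42.5 CPM in KO and 26.0 to 32.3 CPM in WT, nearly all of it Cd68, a lysosomal protein that other cells also make. Cd68 rose by 0.52 on the log2 scale, the 1 of 5 tested macrophage markers that passed. Its call was lost without WT1 or WT3, with a replicate block and with a separate spread per group. Adgre1 had 0 counts in both KO libraries and 2, 1 and 1 in WT1, WT2 and WT3. The part of leukocytes in the Lyz2 values was not tested, and in bulk RNA fewer cells of a type and less RNA per cell cannot be told apart.

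**Figure D3:**
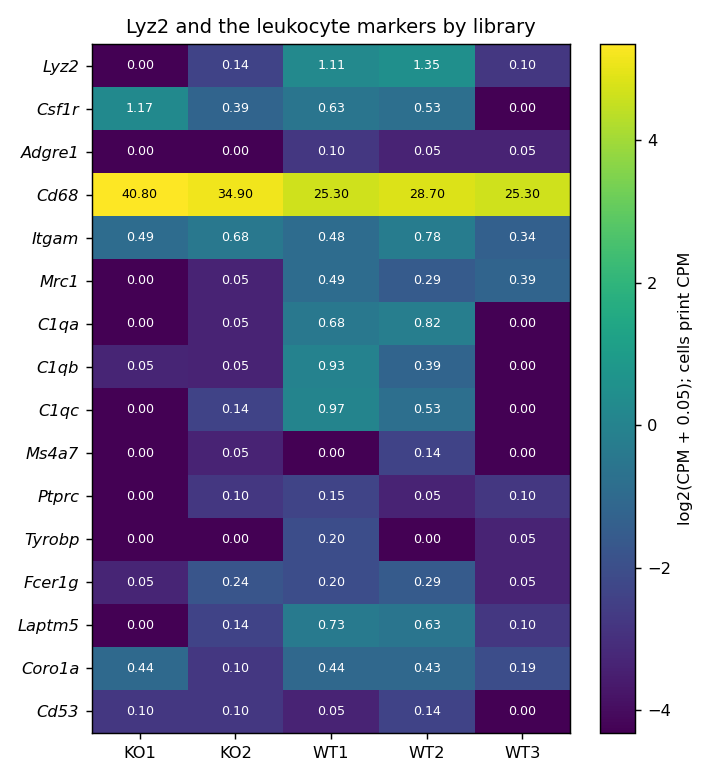
CPM of Lyz2 (top row) and of the macrophage and pan-leukocyte markers (rows) in each library (columns, KO left); colour is log2(CPM + 0.05) and each cell prints CPM. Lyz2, C1qa, C1qb, C1qc and Laptm5 are higher in WT1 and WT2 than in WT3 and in both KO libraries, while Csf1r is highest in KO1 and Cd68 is higher in both KO libraries than in WT. Mrc1 is higher in each WT library than in both KO libraries.

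Pglyrp1 (gene 21946, chromosome 7, 18884690 to 18890438, plus strand), a peptidoglycan recognition protein of neutrophil granules, had 7 and 2 counts in KO1 and KO2 and 9, 12 and 6 in WT1, WT2 and WT3. The groups overlapped, and the ratio of KO to WT was 0.501 with a 95% counting interval of 0.207 to 1.10, so no difference was detectable at this depth. Camp (gene 12796, chromosome 9, 109847377 to 109849456, minus strand), the cathelicidin precursor, had 0 counts in both KO libraries and 1, 0 and 0 counts in WT1, WT2 and WT3. A count of 0 allows up to 3 counts, or 0.145 to 0.147 CPM in a library. Apart from the 1 count in WT1, Camp was not detected at this depth. Of the 8 neutrophil and myeloid precursor markers found in the table, 2 were tested, Cxcr2 and Csf3r, and 0 changed. The 8 summed to 3.65 to 4.59 CPM in KO and 3.25 to 5.01 CPM in WT. Most of that was Cxcr2, at 3.50 and 2.28 CPM in KO1 and KO2 and 2.47 to 3.50 CPM in WT. The untested markers of this list were close to 0, with at most 8 counts in any library. Intervals and floors cover counting error and not the spread between libraries.

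Set side by side per transcript length, the order of the genes differed between the groups. In KO, Defb1 averaged 547 ± 299 TPM (SD, n = 2), Slpi 48.8 ± 18.6, Lcn2 39.3 ± 32 and Defb14 4.82 ± 5.86 TPM, with Pglyrp1, Defb3 and Lyz2 below 1 TPM. In WT, Slpi averaged 220 ± 32.6 TPM (SD, n = 3) and Defb1 206 ± 16.3, followed by Defb14 at 25.7 ± 8.71, Defb3 at 9.39 ± 3.78, Lcn2 at 4.21 ± 0.717, Lyz2 at 1.66 ± 1.29 and Pglyrp1 at 1.35 ± 0.45 TPM. In KO the library ranges overlapped between Slpi and Lcn2, between Defb14 and Pglyrp1, between Pglyrp1 and Defb3, and between Defb3 and Lyz2. In WT they overlapped between Slpi and Defb1 and between Lyz2 and Pglyrp1. The order within those pairs is not settled. The TPM ratio of Defb1 to Slpi was 21.3 and 5.42 in KO1 and KO2, against 0.829, 0.832 and 1.20 in WT1, WT2 and WT3, and that of Lcn2 to Slpi was 0.467 and 1 in KO1 and KO2, against 0.015 to 0.0236 in WT. Summed over the 8 genes, the TPM was 812 and 469 in KO1 and KO2 and 466, 507 and 433 in WT1, WT2 and WT3, so KO2 lay within the WT range while its make-up did not.

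**Figure D4:**
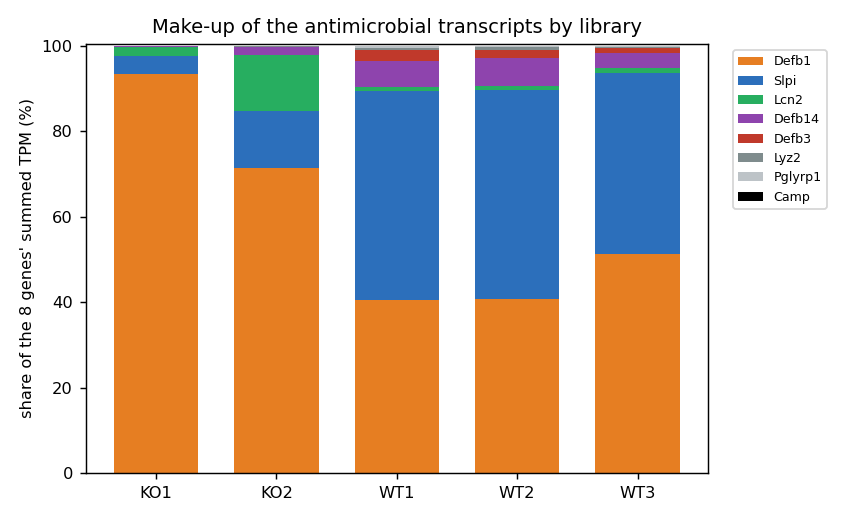
Share of each antimicrobial gene in the summed TPM of the 8 genes (bars from 0 to 100%) for the KO (left) and WT (right) libraries. Defb1 takes 93.4 and 71.5% in KO1 and KO2 and 40.6 to 51.2% in WT, and Slpi takes 4.39 and 13.2% in KO1 and KO2 and 42.6 to 49.0% in WT.

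Other defence genes of skin, most but not all of them secreted and called secreted defence genes below, also split. Of 48 such genes 36 were found in the table, 23 were tested, and 7 rose, 5 fell and 11 did not pass (52.2% called, against 40.8% of all tested genes). The median log2 fold change was 0.31, against 0.02 over all tested genes. Library by library, the list's median log2 difference from the WT mean was -0.05 in KO1 and -0.03 in KO2. Neither KO library alone thus showed the list shifted up. The lower genes included the calcium-binding alarmins: S100a8, whose protein pairs with that of S100a9 to withhold zinc and manganese from microbes, was at 4.35 and 5.02 CPM in KO1 and KO2 and 22.4, 29.8 and 15.2 CPM in WT1, WT2 and WT3. Its log2 fold change was -2.26 ± 0.32 (SE; adjusted p = 0.00611 by edgeR). S100a9 changed by -2.05 and S100a7a, a mouse relative of psoriasin, by -3.19 on the log2 scale. The KO and WT ranges stood apart for these 3 genes, as they did for 66.4% of all tested genes. S100a8 and S100a9 did not pass with a separate spread for each group (adjusted p = 0.185 and 0.234 by limma-voom; ranges over their alternatives 7.78e-10 to 0.185 and 1.67e-06 to 0.234), nor did S100a9 without WT1 (adjusted p = 0.0576).

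The higher genes of this list were of other kinds. The chemokine Cxcl14, which has antimicrobial activity, was at 57.3 and 53.2 CPM in KO1 and KO2 and 35.8, 34.4 and 34.7 CPM in WT1, WT2 and WT3 (log2 fold change 0.66 ± 0.07, SE; adjusted p = 0.00376 by edgeR). The galectins Lgals9 and Lgals3, lectins that bind sugar chains, rose by 1.36 and 1.01, the interferon-induced tetherin gene Bst2 by 1.32, and Wfdc3, of the same whey acidic protein domain family as Slpi, by 1.94 on the log2 scale. Lgals3 did not pass without WT1, WT2 or WT3 (adjusted p = 0.0584 to 0.0776 by edgeR; range over its alternatives 7.44e-06 to 0.0776). Wfdc3 did not pass without WT1 or WT2 or with a separate spread per group, nor Bst2 without WT2, and Wfdc3 rests on 39 counts over the KO and 15 over the WT libraries. Without WT1, WT2 and WT3 in turn, the list's 7 higher became 3, 2 and 4 and its 5 lower became 2, 3 and 3. Calls over all tested genes fell from 5286 to 1936, 2241 and 2221 in the same fits. Without KO1 or KO2 a lone KO library was left, and calls rose both in the list and over all tested genes.

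Genes that sense microbes or control the antimicrobial genes also changed in both directions. Of 46 listed and found 42 were tested, and 11 rose, 4 fell and 27 did not pass (35.7% called, against 40.8% of all tested genes), with a median log2 fold change of 0.15. Nfkbiz, which encodes I-kappaB-zeta, a cofactor needed to induce Lcn2 and beta-defensins in keratinocytes, was at 135 and 203 CPM in KO1 and KO2 and 338, 368 and 304 CPM in WT1, WT2 and WT3. The KO level was 0.501 times the WT level (SE 0.20 on the log2 scale; adjusted p = 0.0145 by edgeR). Of the members, Lcn2 and Defb1 rose and Slpi and Defb3 fell, and a link of Nfkbiz to these changes was not tested. The call of Nfkbiz was lost without WT1 or WT2 (range over its alternatives 2.64e-05 to 0.0636).

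The vitamin D receptor gene Vdr, whose human counterpart induces cathelicidin, was at 166 and 151 CPM in KO1 and KO2 and 87.0, 85.1 and 88.5 CPM in WT1, WT2 and WT3 (log2 fold change 0.87 ± 0.07, SE; adjusted p = 0.00238 by edgeR). Camp itself had 0 counts over the KO and 1 over the WT libraries. Ticam1, the adaptor of Tlr3, rose by 1.35 and Tlr3, a receptor for double-stranded RNA, changed by -0.89. The receptor subunits Il17rd and Il17rc rose by 0.87 and 0.49, and of the interleukin-1 receptor Il1r1 rose by 0.55 while its partner Il1rap changed by -0.70 on the log2 scale. Il17rc did not pass without WT1 nor Il1r1 without WT1 or WT2, and Tlr3 and Il1r1 did not pass with a separate spread for each group. With WT1, WT2 and WT3 left out in turn, the list's 11 higher became 3, 5 and 5 and its 4 lower became 2, 2 and 3. Calls over all tested genes fell from 5286 to 1936, 2241 and 2221 in the same fits. With KO1 or KO2 left out a lone KO library remained, and calls rose both in the list and over all tested genes.

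**Figure D5:**
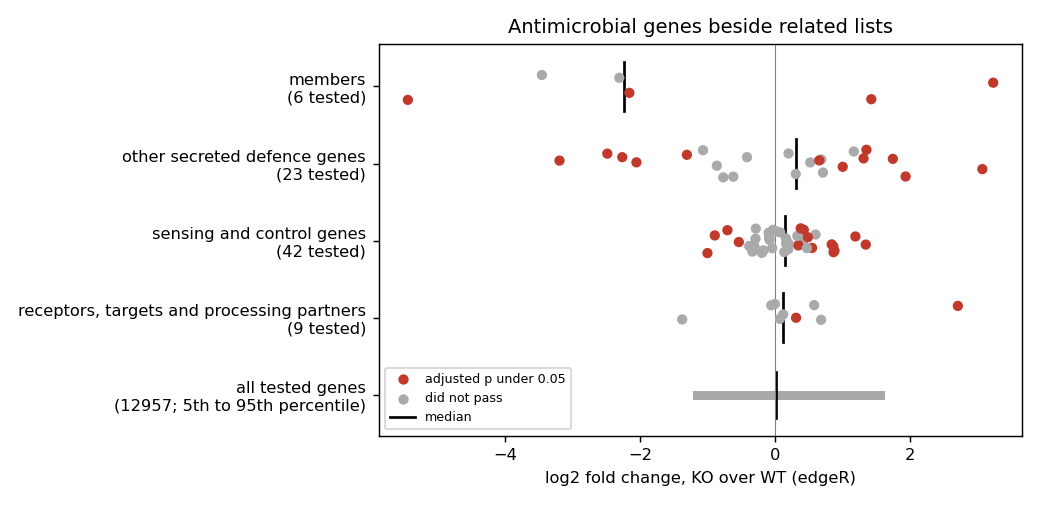
Log2 fold change of KO over WT (edgeR) for each tested gene of the antimicrobial set and of 3 related lists; red points passed an adjusted p of 0.05, grey points did not, and black bars are medians. The lowest row gives the 5th to 95th percentile of all 12957 tested genes, -1.16 to 1.55, and the 6 tested antimicrobial genes are spread from -5.44 to 3.24.

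Of 18 listed receptors and partners of the antimicrobial proteins 13 were found and 9 were tested, and 2 rose, 0 fell and 7 did not pass (22.2% called, against 40.8% of all tested genes). Slc22a17, a cell surface receptor of lipocalin-2, was at 9.79 and 9.81 CPM in KO1 and KO2 and 1.41, 1.69 and 1.36 CPM in WT1, WT2 and WT3. It rose by 2.71 ± 0.17 on the log2 scale (SE; adjusted p = 0.00152 by edgeR), the same direction as Lcn2, and passed under each of its 16 alternatives (log2 fold change 2.02 to 2.82). Egfr rose by 0.32 (adjusted p = 0.0477 by edgeR), a call that was lost without WT1, WT2 or WT3 (adjusted p = 0.121 to 0.163; range over its alternatives 0.000458 to 0.206).

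The other partners did not pass. Mmp9, a gelatinase that binds lipocalin-2 in human neutrophils, was at 61.1 and 20.9 CPM in KO1 and KO2 and 131, 108 and 79.0 CPM in WT1, WT2 and WT3 (adjusted p = 0.072 by edgeR; range over its alternatives 0.000201 to 0.189). Klk5 and Klk7, which cut human cathelicidin to its active peptide, were at 2.64 and 16.2 CPM in KO1 and at 9.90 and 92.2 CPM in KO2, against 3.07 to 5.18 and 34.8 to 66.5 CPM in WT. The KO libraries thus lay on either side of the WT range for both proteases. Plscr1, a membrane partner of human SLPI, had a log2 fold change of 0.00 ± 0.28 (SE), Anxa2, a membrane-binding annexin, one of -0.05 ± 0.22, and P2rx7, an ATP-gated channel, one of 0.58 ± 0.31. Ccr6, a beta-defensin receptor of leukocytes, had 1 count over the KO and 1 over the WT libraries, and Fpr2, a receptor of cathelicidin peptides, had 0 in each library.

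Of 7 keratinocyte differentiation markers 3 rose and 0 fell (42.9% called, against 40.8% of all tested genes). They summed to 980 and 1046 CPM in KO1 and KO2 and 514 to 699 CPM in WT, most of it Sbsn, which overlapped between the groups and did not pass. The 3 that rose were higher in KO1 than in KO2, as Defb1 was: Krt1 was at 333 and 36.9, Krt10 at 13.9 and 3.83 and Dsg1a at 31 and 10.7 CPM in KO1 and KO2. In WT they were at 7.35 to 12.9, 1.38 to 2.01 and 3.93 to 7.83 CPM, and Krt1 and Krt10 did not pass once any WT library was left out. The 4 that did not pass were higher in KO2 than in KO1, as Lcn2 was: Ivl was at 11.8 and 23.3, Lor at 3.18 and 8.41, Flg at 7.19 and 28.5 and Sbsn at 581 and 934 CPM in KO1 and KO2. Fibroblast markers, 3 of 6 tested higher, summed to 57.7 and 19.0 CPM in KO1 and KO2 and 1.26 to 6.53 CPM in WT. The 5 melanocyte markers summed to 3.76 to 7.18 CPM in KO and 3.77 to 4.88 CPM in WT, with 0 changed, and the 4 endothelial markers to 2.94 to 3.09 CPM in KO and 4.64 to 5.41 CPM in WT, with 1 of 2 tested lower. Langerhans cell markers summed to 12.3 to 14.8 CPM in KO and 0.679 to 5.65 CPM in WT, with 1 of 2 tested higher, H2-Ab1. The other tested marker, Cd74, overlapped between the groups and did not pass. It was at 4.26 and 7.83 CPM in KO1 and KO2 and 4.92, 3.92 and 0.097 CPM in WT1, WT2 and WT3. H2-Aa and Itgax had at most 6 counts in any library and 0 in both KO libraries. T cell markers summed to 5.80 to 15.3 CPM in KO and 1.02 to 1.98 CPM in WT, nearly all of it Thy1, which fibroblasts also make, while Cd3d, Cd3e and Cd3g had at most 3.86 counts in any library. The part of these cell types and states in the antimicrobial values was not tested.

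The genes whose library profiles were most like each member's were found by the smallest root mean square difference of centred log2 CPM over the 5 libraries, among tested genes with an average log2 CPM of at least 1. With 5 libraries split into 2 groups, many genes come close, and the likeness is a description. Nearest to Defb1 were Serpinb6b, Ppp1r3b and Them5 (differences of 0.06, 0.07 and 0.08 on the log2 scale). Nearest to Slpi were Tfcp2l1, Procr and Tnfaip2 (0.08, 0.09 and 0.10). For Lcn2 they were Lhfpl2, Ddr2 and Abca1 (0.19, 0.40 and 0.41), for Defb3 Fosb, Prl8a9 and Ngef (0.24, 0.37 and 0.41), and for Lyz2 Sprr2e, S100a9 and Sprr2d at a looser 0.71, 0.72 and 0.73. Nearest to Defb14 were Alox12b, Sprr2e and Cnfn (0.13, 0.18 and 0.20), of which Alox12b is a lipoxygenase of the skin barrier and Sprr2e and Cnfn are genes of the cornified envelope. Alox12b was at 1.22 and 5.46 CPM in KO1 and KO2, against 21.4, 24.7 and 11.4 CPM in WT1, WT2 and WT3.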

How the data were processed

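Per the submitters' processing notes, RSEM 1.3.1 and the build GRCm38.p6 were used. The deposited expected counts are estimates that share out ambiguous reads, and in each library 32.1 to 34.0% of them were fractions. TPM values, named so in the file headers, were scaled by the authors within each library, and the deposited FPKM values were not used. The sources used here name no aligner or strand setting.

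Expected counts were rounded, and edgeR 4.0.16 (R 4.3.3) was run with these settings: filterByExpr by group, TMM factors (0.988 to 1.02), the two-sided quasi-likelihood test of KO against WT over 12957 genes, Benjamini-Hochberg adjustment over these genes and a threshold of 0.05. Both groups shared an estimate of the spread, and each standard error is the log2 fold change over the square root of the F statistic. The script was tested on simulated counts. Alternatives used DESeq2's size factors, total counts, DESeq2 1.42.0, limma-voom (limma 3.58.1) without and with a separate spread per group, no or a stricter count filter (mean of 50), a replicate block, limma on log2(TPM + 1) or log2(TPM + 0.1), the former also for genes with a mean TPM of at least 1, and each library left out, with a lone KO library assumed to vary like the WT libraries.

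The members and lists were chosen with earlier results of these data known. Named genes are the members, Angptl4, the 8 tested genes with the smallest p of the secreted defence and of the sensing list, the 6 of the partner list with the direct partners, and the 3 most alike genes per tested member. The cell type markers named singly and genes of the closing section were picked with their values known. Chi-square per degree of freedom was 106 between the KO libraries and 3.39 to 6.31 between WT libraries, above counting noise, and each library counts as its own replicate.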

Additional observations from a re-analysis of the deposited data

How the results depend on the processing

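Over 59 named genes and up to 16 alternatives, 791 of 931 values stayed on their side of the threshold, 113 lost a call, 25 gained one and 2 changed sign with a call. Among the 791 are values of Plscr1, Klk7 and Klk5 that passed in no fit concerned and differed in sign between fits. Those 2 were Klk7 and Anxa2 without KO2 (log2 fold changes of -1.60 and 0.26, against 0.89 and -0.43 without KO1), where 1 KO library sets the value. With each library left out, the genes called ranged from 1936 to 8004 against 5286, the members from 2 to 6 against 4, the other secreted defence genes from 5 to 19 against 12, and the sensing and control genes from 5 to 29 against 15. With a separate spread per group, 3192 genes and 7 sensing and control genes were called. The replicate numbers are not said to pair libraries, and deviations of same-numbered libraries were nearly unrelated (correlations of 0.00714 for number 1 and 0.0676 for number 2). With the replicate block 1580 genes were called, 3 members, with Defb1 lost (adjusted p = 0.0614 by edgeR), 8 secreted defence genes and 3 sensing and control genes. The other alternatives kept these counts within 1.5 times. Defb14 passed under 6 of its 16 alternatives and Lyz2 under 2 of 15, without WT3 or without KO2. Defb3 and Lyz2 dropped out under the stricter filter. Depth limits Camp, Pglyrp1, Lyz2 and Defb3, which had at most 36 counts in a library.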

Other observations

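Further secreted defence genes passed the test and were chosen after their values were seen. Pglyrp3, a peptidoglycan recognition protein of epithelia, was at 39.6 and 20 CPM in KO1 and KO2 and 73.2, 75.1 and 72.1 CPM in WT1, WT2 and WT3, a log2 fold change of -1.30 ± 0.28 (SE; adjusted p = 0.0191 by edgeR). Wfdc2, a relative of Slpi with whey acidic protein domains, was at 4.40 and 1.06 CPM in KO1 and KO2 and 14.7 to 15.9 CPM in WT (log2 fold change -2.48). The pentraxin Ptx3, a soluble pattern recognition protein, was at 0.930 and 3.53 CPM in KO1 and KO2 and 0.185 to 0.387 CPM in WT (log2 fold change 3.08). Sprr2a1, a small proline-rich protein of the cornified envelope, was at 5204 and 2495 CPM in KO1 and KO2 and 789 to 1354 CPM in WT (log2 fold change 1.75), and close copies of this gene may share its reads. For each of these 4 genes the groups did not overlap, as for 66.4% of all tested genes. None of the 4 passed once any WT library was left out (adjusted p = 0.0631 to 0.0876 by edgeR).

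Neighbours on the chromosome were looked up for Defb1, Defb3, Defb14, Lcn2 and Slpi. Beside Slpi, Matn4 and Rbpjl had too few counts to be tested, as did Spag11a and Defb4 beside Defb14, Defb6 beside Defb3 and Defb2 and Defb9 beside Defb1. Beside Lcn2, 1110008P14Rik, 2.72 kb away, was at 56.8 and 56.6 CPM in KO1 and KO2 and 36.9 to 40.8 CPM in WT (log2 fold change 0.55), and Ciz1 did not pass (log2 fold change 0.19).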
